A study of Rattus norvegicus with 4 samples.

Results

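RNA of whole carotid bodies (CBs) was read for 10 genes by which tissue-resident macrophages are recognised. They were taken by gene symbol from the 32883 genes of the deposited table, and all 10 were found there with whole-number counts in every library. The CB senses oxygen in arterial blood, and bulk RNA of it holds every cell type of the organ, macrophages included. The samples were CBs of Sprague-Dawley rats with no treatment, in 2 libraries of neonates aged 5 days and 2 of adults aged 21 days. The design text of the series gives CBs of 6 pups or 3 older rats pooled per library. The paper's methods state larger pools and a further replicate per age, which were not analysed here. Pups and older rats came from litters of purchased pregnant dams, and both sexes were included. The titles call the libraries of an age biological replicates. No source says that they came from separate litters, so the spread between libraries may not cover that between litters.

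Resident macrophages settle in tissues before and after birth and are kept alive through the receptor Csf1r, which binds the growth factors Csf1 and Il34. Those along vessels carry the scavenger receptor Cd163, which takes up haemoglobin bound to haptoglobin, the mannose receptor Mrc1 and the hyaluronan receptor Lyve1. They make C1q, the recognition unit of the classical complement pathway, from the chains C1qa, C1qb and C1qc. Adgre1 (F4/80, an adhesion receptor), Aif1 (Iba1, an actin-binding protein) and Cd68 (a lysosomal membrane protein) are used as general macrophage markers. None of these genes is private to the resident macrophage. Lyve1 is also a gene of lymphatic endothelium, and Aif1 and Cd68 are expressed by other myeloid cells.

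Levels are given as CPM, the counts of a gene per 1000000 counts of its library, with 36286191 to 39476110 counts in a library. Differences are log2 fold changes, neonate over adult, estimated by edgeR (TMM normalization, quasi-likelihood test, Benjamini-Hochberg adjustment over the 13838 genes tested), and a gene was called at an adjusted p under 0.05. A negative log2 fold change means a lower level in neonates. TMM factors were 0.902 and 0.935 for the neonatal libraries and 1.08 and 1.10 for the adult libraries, so a fitted change toward adults is smaller than the ratio of the CPM. When libraries were scaled by size alone, the median over all genes was -0.25 on the log2 scale in place of -0.0029, and 2587 genes were called higher in neonates in place of 4324. At 2 libraries against 2, an exact permutation test of a single value cannot give a two-sided p below 0.333, and the adjusted p rest on edgeR's sharing of the spread across genes.

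Of the 10 macrophage genes, 8 were lower in neonates than in adults, 1 (Aif1) was higher in neonates, and 1 (Cd68) did not pass the test. By the same rule 31.1% of all genes tested were lower in neonates and 31.2% were higher, 62.3% in all. At least 2-fold lower were 3 of the 10 (Cd163, Csf1r and Adgre1), against 13.2% of all genes, and C1qc fell just short, at 1.99-fold. None of the 10 was 2-fold higher in neonates, against 7.68% of all genes. The median log2 fold change of the 10 was -0.84, with -0.0029 for all genes tested. In CPM, both neonatal libraries lay below both adult libraries for 8 of the 10 genes, which held for 55.3% of all genes tested, and only for Aif1 did both lie above, which held for 27.9%. As this is bulk RNA, fewer macrophages, less of these RNAs per macrophage and a different part from other cells cannot be told apart.

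**Figure D1:**
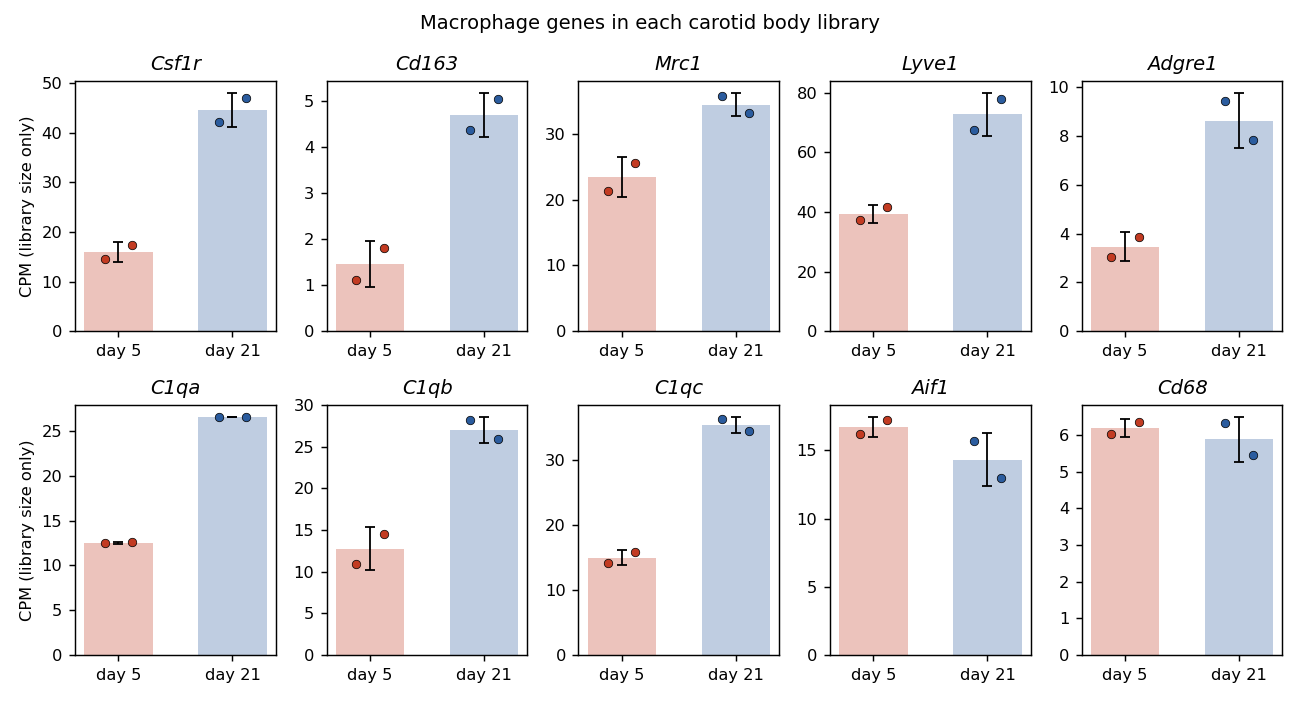
CPM of the 10 macrophage genes, with a point for each library, a bar at the mean and an error bar of 1 SD over the 2 libraries of an age (day 5, neonates, and day 21, adults). The adult points lie above the neonatal points in 8 panels, while those of Aif1 lie slightly below them and those of Cd68 overlap.

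Csf1r (ENSRNOG00000018414), the growth factor receptor on which macrophages depend, had 14.5 and 17.5 CPM in the neonatal libraries and 42.1 and 47.0 CPM in the adult libraries. The ages were far apart, and the lower adult library exceeded the sum of both neonatal ones. The log2 fold change was -1.24 ± 0.11 (standard error) with an edgeR adjusted p of 2.9e-05, or 2.35-fold higher in adults, the smallest adjusted p of the 10 genes. The call held in all 13 alternatives of processing, with log2 fold changes from -1.48 to -1.12.

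Cd163 (ENSRNOG00000010253), the haemoglobin scavenger receptor, had few reads, with 44 and 70 counts in neonates (1.11 and 1.82 CPM) and 165 and 183 counts in adults (4.37 and 5.04 CPM). Both adult libraries were above both neonatal ones, and the neonatal libraries also differed from each other by more than those of any other of these genes in proportion to their level. It had the largest change of the 10, a log2 fold change of -1.44 ± 0.33 (standard error) with an edgeR adjusted p of 0.0043, or 2.71-fold higher in adults. The estimate was -1.14 without neonate replicate 1 and -1.79 without neonate replicate 2, and it stayed called in both.

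Lyve1 (ENSRNOG00000026902), the hyaluronan receptor, had 37.3 and 41.6 CPM in neonates and 67.6 and 77.8 CPM in adults. The ages did not overlap, and the spread within an age was small beside the gap. Its log2 fold change was -0.64 ± 0.10 (standard error) with an edgeR adjusted p of 0.00058, or 1.56-fold higher in adults.

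Mrc1 (ENSRNOG00000018251), the mannose receptor CD206, had 21.3 and 25.6 CPM in neonates and 35.7 and 33.2 CPM in adults. Its libraries did not overlap between ages, but its change was the smallest of the 8 genes lower in neonates, at -0.31 ± 0.11 on the log2 scale (standard error) with an edgeR adjusted p of 0.031. The call was lost without neonate replicate 1 (-0.20, adjusted p = 0.19 from edgeR), without adult replicate 1 (-0.28, adjusted p = 0.13 from edgeR) and by DESeq2 (-0.31, adjusted p = 0.055). Over all alternatives its adjusted p ran from 0.0029 to 0.19.

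Adgre1 (ENSRNOG00000046254), which encodes F4/80, had 3.04 and 3.87 CPM in neonates and 9.42 and 7.83 CPM in adults. Each adult library had more than either neonatal library, and the log2 fold change was -1.08 ± 0.24 (standard error) with an edgeR adjusted p of 0.0040, or 2.11-fold higher in adults.

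The chains of C1q come from neighbouring genes, in the order C1qb, C1qc and C1qa on chromosome 5 in the RefSeq gene table of the rat assembly GRCr8, with no other gene of the table starting between them. C1qa (ENSRNOG00000012807) had 12.5 and 12.6 CPM in neonates and 26.6 CPM in both adult libraries. C1qb (ENSRNOG00000012749) had 10.9 and 14.6 CPM in neonates and 28.2 and 25.9 CPM in adults. C1qc (ENSRNOG00000012804) had 14.2 and 15.8 CPM in neonates and 36.4 and 34.6 CPM in adults. For all 3 chains the lowest adult library stood well clear of the highest neonatal one. Their log2 fold changes were -0.84, -0.84 and -0.996, with standard errors of 0.11, 0.14 and 0.10 and edgeR adjusted p of 0.00022, 0.00087 and 6.0e-05. The make-up of the C1q counts hardly moved with age. C1qc took 37.8% and 36.8% of the counts of the 3 chains in neonates and 39.9% and 39.7% in adults, and C1qa took 29.3% to 33.1% in neonates and 29.2% to 30.6% in adults.

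Aif1 and Cd68 did not share the lower neonatal level. Aif1 (ENSRNOG00000000853) had 16.2 and 17.3 CPM in neonates and 15.7 and 12.95 CPM in adults. The ages were close, with adult replicate 1 just under neonate replicate 1. After TMM normalization the log2 fold change was 0.47 ± 0.14 (standard error) with an edgeR adjusted p of 0.018, or 1.38-fold higher in neonates. With library size alone it was 0.23 (adjusted p = 0.20 from edgeR) and without adult replicate 2 it was 0.30 (adjusted p = 0.16 from edgeR), out of adjusted p from 0.0048 to 0.20 over all alternatives, so the higher level of Aif1 in neonates depends on the scaling and on that library. Cd68 (ENSRNOG00000037563) had 6.03 and 6.36 CPM in neonates and 6.33 and 5.46 CPM in adults. Its ages overlapped, and the log2 fold change of 0.32 ± 0.22 (standard error) with an edgeR adjusted p of 0.24 did not pass in any alternative, where it ran from 0.073 to 0.41.

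**Figure D2:**
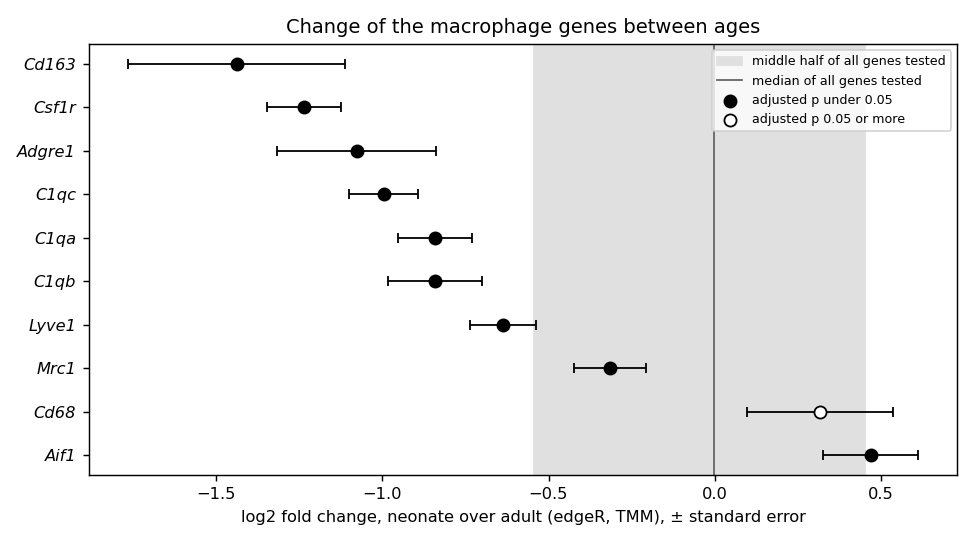
Log2 fold change, neonate over adult, of the 10 macrophage genes in edgeR's estimate after TMM normalization, with bars of 1 standard error, filled points for an adjusted p under 0.05, and the median and the quartiles (-0.54 to 0.45) of all genes tested behind them. Of the 10 genes, 7 lie below the lower quartile, Mrc1 and Cd68 lie between the quartiles, and Aif1, at 0.47, lies just above the upper one.

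Stretches upstream of the start of 4 of these genes are shown to set 2 chains of the C1q cluster (C1qa and C1qb) beside the gene with the largest change (Cd163) and the gene that did not pass the test (Cd68). Each is the 250 bases before the transcript start, read on the strand of the gene, from RefSeq in the build GRCr8, which is not the build the reads were mapped to. Capitals mark the letters GAGGAA, the core bound by the macrophage factor PU.1 (gene Spi1), and GGAAGT, a core of the ETS family to which PU.1 belongs, on either strand, and the 2 can overlap.
C1qa, chr5:154419934-154420183, minus strand: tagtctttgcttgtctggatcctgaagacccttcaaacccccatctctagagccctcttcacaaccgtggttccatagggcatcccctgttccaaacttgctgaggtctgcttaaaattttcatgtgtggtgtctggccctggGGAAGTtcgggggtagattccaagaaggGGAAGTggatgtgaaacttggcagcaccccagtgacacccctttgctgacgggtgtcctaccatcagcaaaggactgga
C1qb, chr5:154407828-154408077, minus strand: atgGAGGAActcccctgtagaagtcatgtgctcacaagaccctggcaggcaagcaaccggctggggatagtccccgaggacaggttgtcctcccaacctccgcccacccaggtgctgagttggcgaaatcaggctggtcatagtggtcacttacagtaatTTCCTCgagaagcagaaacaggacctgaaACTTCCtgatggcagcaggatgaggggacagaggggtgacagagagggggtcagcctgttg
Cd163, chr4:158770524-158770773, plus strand: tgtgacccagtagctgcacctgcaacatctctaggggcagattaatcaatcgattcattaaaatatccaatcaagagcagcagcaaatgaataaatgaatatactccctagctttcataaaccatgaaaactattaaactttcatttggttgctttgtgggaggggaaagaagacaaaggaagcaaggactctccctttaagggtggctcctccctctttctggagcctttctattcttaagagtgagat
Cd68, chr10:54882442-54882691, minus strand: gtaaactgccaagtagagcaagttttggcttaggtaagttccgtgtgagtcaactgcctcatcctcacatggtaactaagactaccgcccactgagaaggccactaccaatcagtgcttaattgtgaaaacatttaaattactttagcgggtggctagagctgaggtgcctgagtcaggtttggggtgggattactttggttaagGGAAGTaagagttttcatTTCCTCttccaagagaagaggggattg
GAGGAA was found in 5 of the 8 of these genes that have an entry in the promoter table (Adgre1, C1qb, Cd68, Csf1r and Mrc1), and in 23.3% of all 33469 upstream windows of that length. GGAAGT was found in 4 of the 8 (C1qa, C1qb, Cd68 and Mrc1) and in 19.2% of all windows. TATAAA, the core of the TATA box, was found in none of the 8 and in 12.9% of all windows. The Cd163 window holds neither core, the C1qa window GGAAGT alone, and the C1qb and Cd68 windows both. These are matches of letters, and nothing about the factors follows from them.

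Within a library, the ratio of 2 of these genes does not depend on how libraries are scaled. Set against Csf1r, Aif1 fell from 1.12 and 0.990 counts per count of Csf1r in neonates to 0.372 and 0.275 in adults. Cd68 fell in the same way, from 0.415 and 0.365 to 0.150 and 0.116. These are the widest gaps, with a difference in mean log2 ratio, neonate minus adult, of 1.72 for Aif1 and 1.56 for Cd68. Mrc1 went from 1.47 and 1.46 in neonates to 0.848 and 0.706 in adults, a difference of 0.92 on the log2 scale, and Lyve1 from 2.57 and 2.38 to 1.604 and 1.655, a difference of 0.60. For the C1q chains the differences were smaller, from 0.24 for C1qc to 0.39 for C1qa. The ratios of Cd163 and Adgre1 to Csf1r overlapped between ages, at 0.0768 to 0.107 and 0.1665 to 0.2236 over all 4 libraries. In all, 7 of the 9 ratios to Csf1r did not overlap between ages, all of them higher in neonates, each with p = 0.333 in a two-sided exact permutation test, the smallest that 2 libraries against 2 allow, so these differences could not pass a test of their own. Of all other genes tested, 85.4% had a ratio to Csf1r above both adult libraries in both neonatal ones and 6.44% had one below, so the count of 7 is no more than that of genes at large. With Cd68 as the denominator the direction turned for most of them, and 9 of 9 ratios did not overlap, 8 lower and 1 (Aif1) higher in neonates, against 56.5% of all other genes lower and 21.6% higher. The ratio of Aif1 to Cd68 moved least, with 2.69 and 2.71 in neonates and 2.48 and 2.37 in adults.

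**Figure D3:**
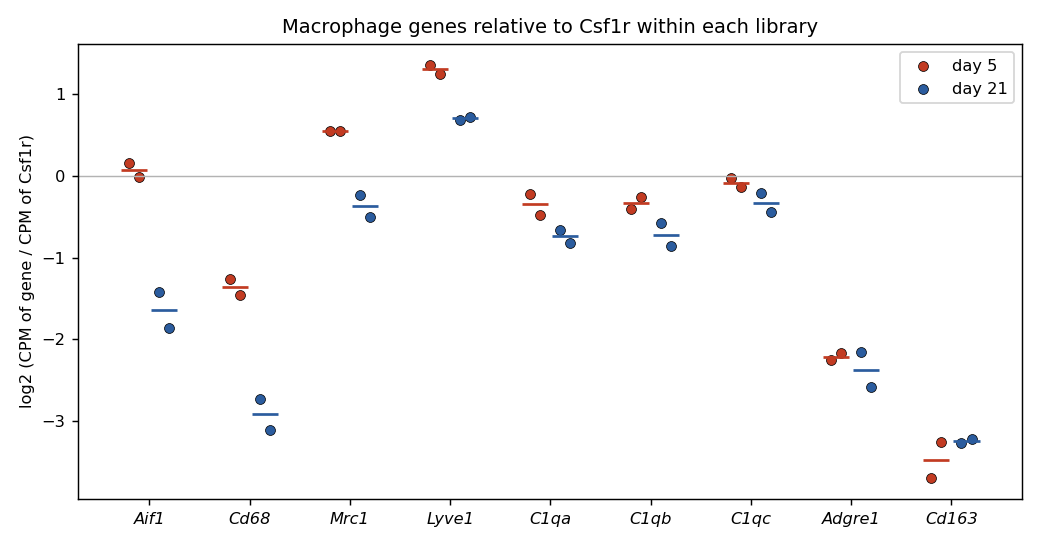
Log2 ratio of the CPM of each macrophage gene to that of Csf1r, with a point for each library and a line at the mean of an age (day 5, neonates, and day 21, adults). Levels are not per transcript length, so the height of a gene is not comparable with that of another gene. The gap between ages is widest for Aif1 and Cd68, and the points of Adgre1 and Cd163 overlap.

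The ligands of Csf1r were lower in neonates as well. Csf1 had 16.3 and 19.8 CPM in neonates and 31.4 and 39.2 CPM in adults, and the log2 fold change was -0.72 ± 0.13 (standard error) with an edgeR adjusted p of 0.0013. Il34, the second ligand, had 7.04 and 4.80 CPM in neonates and 23.2 and 24.4 CPM in adults, and the log2 fold change was -1.76 ± 0.20 (standard error) with an edgeR adjusted p of 8.3e-05. Of the receptors of related cytokines, Csf2rb, the shared signalling chain, was lower in neonates (-1.38, adjusted p = 0.0052 in edgeR), and Csf2ra, the chain that binds Csf2, was higher (1.07, adjusted p = 0.00026 in edgeR), with a mean of 15.3 CPM in neonates and 8.60 and 8.74 CPM in adults. Csf3r was under the limit for testing, with at most 1.05 CPM, and Csf2 had no counts in any library. In this list of 6 genes, 3 of the 4 tested were lower and 1 was higher in neonates.

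Of 12 transcription factors used by macrophages, 9 were tested, 6 were lower in neonates and none was called higher, with a median log2 fold change of -0.83. Spi1 (PU.1), on which macrophage identity depends, had 1.47 and 1.66 CPM in neonates and 3.49 and 3.11 CPM in adults, and the log2 fold change was -0.83 ± 0.31 (standard error) with an edgeR adjusted p of 0.042. Maf was at -1.90, Nr1h3 (the liver X receptor alpha) at -1.48, Irf8 at -1.07, Runx1 at -1.21 and Cebpb at -0.69. Cebpa (-0.64) had an adjusted p of 0.057 in edgeR's test. Without adult replicate 1, 3 of the factors were called in place of 6.

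Other genes of resident and perivascular macrophages showed a similar split. Of 17 listed, 14 were matched by symbol and 12 tested, of which 9 were lower in neonates and 1 was higher, with a median log2 fold change of -0.76. Selenop, a selenium carrier that macrophages share with other cells, had 10.3 and 10.8 CPM in neonates and 40.4 and 41.6 CPM in adults, and the log2 fold change was -1.72. Clec10a, a lectin of macrophages and dendritic cells, was at -1.002, Folr2, a folate receptor of perivascular macrophages, at -0.88, and Gas6, a ligand that bridges dying cells to the receptors Mertk and Axl, at -1.20. Pf4, a chemokine also made by megakaryocytes, was the one called higher in neonates, at 1.54, with 3.88 and 4.75 CPM in neonates and 1.83 and 1.68 CPM in adults. Vsig4 had no counts, and Cd209a had at most 3 counts in a library. The lower calls numbered 5 without adult replicate 2, where Folr2 was not called, nor was it without adult replicate 1.

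Genes shared by macrophages, monocytes and microglia were split too, with 11 lower, 2 higher (Cyba and Coro1a) and 9 not called of the 22 tested, and a median log2 fold change of -0.58. Lyz2, the lysozyme of myeloid cells, had 51.8 and 53.9 CPM in neonates and 231 and 218 CPM in adults, and the log2 fold change was -1.84 ± 0.078 (standard error) with an edgeR adjusted p of 1.4e-06. Ctss, a cathepsin of antigen-presenting cells, was at -1.74, Ptprc (CD45, the marker of all white blood cells) at -1.38 and Cybb, the catalytic subunit of the phagocyte oxidase, at -1.22. Tyrobp, an adaptor for receptors such as Trem2, had 6.79 and 8.08 CPM in neonates and 9.50 and 9.23 CPM in adults, with an adjusted p of 0.69 in edgeR's test. Without adult replicate 1, and likewise without adult replicate 2, 7 were called lower and none higher, and with library size alone, or without neonate replicate 1, none was called higher either.

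**Figure D4:**
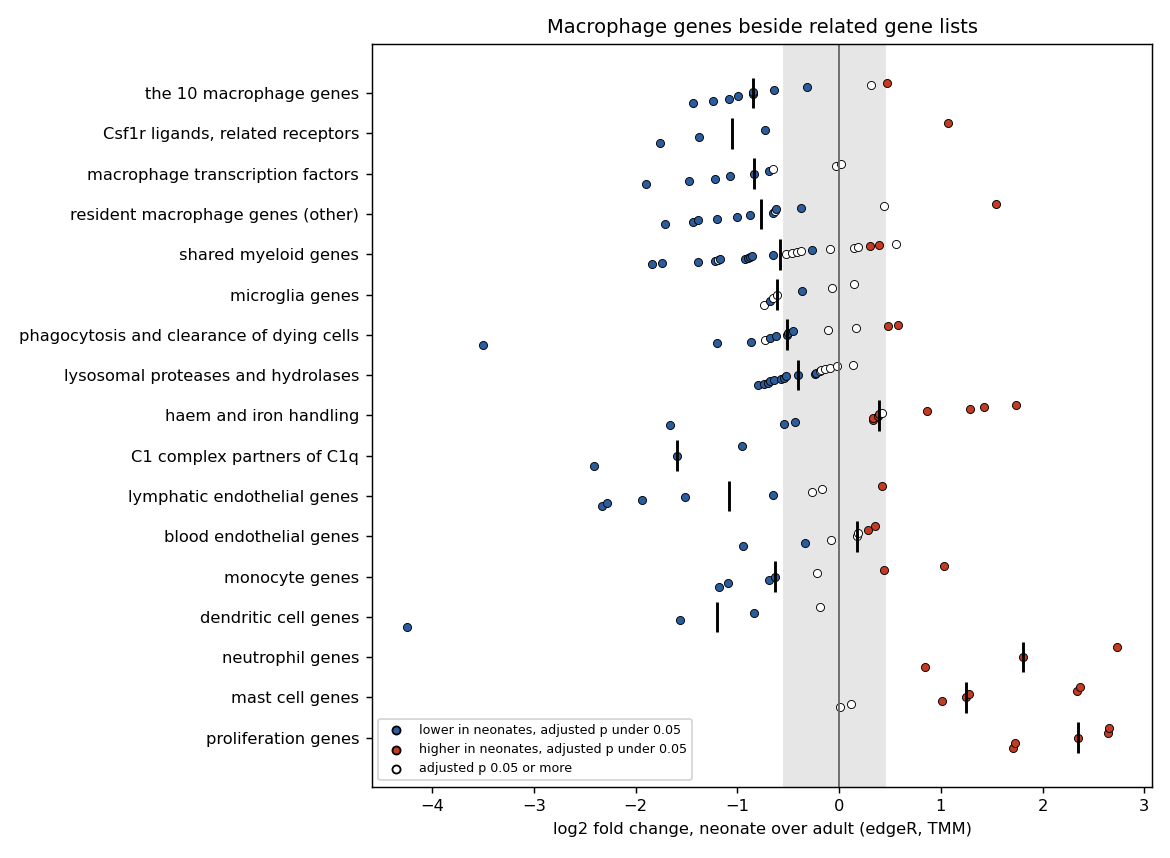
Log2 fold change, neonate over adult (edgeR after TMM normalization), of each tested gene in the 10 macrophage genes and in 16 related lists, with a black bar at the median of a list and the range between the quartiles of all genes tested in grey. Blue points were called lower and red points called higher in neonates (adjusted p under 0.05), and white points did not pass. The 10 macrophage genes and the C1 complex and lymphatic lists are among those with medians left of the grey band. The neutrophil, mast cell and proliferation lists have medians right of it.

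Genes of tasks that macrophages carry out did not all follow their markers. For the clearance of dying cells, 8 of 13 genes tested were lower in neonates and 2 (Tyro3 and Megf10) were higher, the latter 1 with library size alone. Gas6 and Mertk, both lower, are also in the list of resident and perivascular macrophage genes, so the counts of these lists are not separate. The receptor Mertk had 12.7 and 13.7 CPM in neonates and 21.9 and 26.1 CPM in adults, and the log2 fold change was -0.62, and Elmo1, an adaptor of engulfment, was at -0.87 and Itgb5, a chain of the integrin that binds dying cells, at -0.68. Of the lysosomal proteases and hydrolases, which all cells use, 11 of 17 were lower in neonates, none was higher and none reached 2-fold, with Ctsh at -0.73, Ctsc at -0.70 and Ctsb at -0.68.

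Haem and iron handling, the task that Cd163 opens, went the other way from Cd163 for most of the list. Of 12 genes tested, 8 were higher and 3 lower in neonates. In bulk RNA these values cannot be assigned to macrophages. Hmox1, which breaks down haem, had 19.3 and 21.1 CPM in neonates and 14.1 and 12.2 CPM in adults, and the log2 fold change was 0.86 ± 0.13 (standard error) with an edgeR adjusted p of 0.00047. Ftl1, the ferritin light chain that stores iron, had 222 and 217 CPM in neonates and 111.5 and 102.2 CPM in adults, and the log2 fold change was 1.28, and Hp, haptoglobin, the carrier whose haemoglobin complex Cd163 binds, was at 1.74. Cp, the copper oxidase ceruloplasmin, was lower in neonates, at -1.66. With library size alone 4 of the 8 were still called, Hmox1, Ftl1, Hp and Hpx, and Cp stayed lower. The iron exporter Slc40a1 had no counts in any library. For this gene, as for Csf2, Vsig4 and Siglech, a lack of counts does not show that the RNA was absent from the tissue. The erythroid genes tested were all 4 higher in neonates, with Hbb, a haemoglobin chain, at 2618 and 1624 CPM in neonates and 841 and 838 CPM in adults.

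The partners of C1q moved with it. C1r, C1s and the inhibitor Serping1, which are made by many cell types and fibroblasts among them, were all lower in neonates. C1s had 26.1 and 32.9 CPM in neonates and 164 and 207 CPM in adults, and the log2 fold change was -2.41, and Serping1 was at -1.59 and C1r at -0.95. The fibroblast genes were lower in neonates for 4 of 5, with Dcn at -1.40 and Pi16 at -1.78, and their summed level was 5610 and 7056 CPM in neonates and 9045 and 9670 CPM in adults. The part of fibroblasts in the values of the C1 complex genes was not tested.

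Because Lyve1 also marks lymphatic endothelium, all 8 listed lymphatic genes were read, and 5 were lower in neonates. Prox1, the factor that sets lymphatic identity, had 2.61 and 1.92 CPM in neonates and 10.7 and 15.6 CPM in adults, and the log2 fold change was -2.28 ± 0.27 (standard error) with an edgeR adjusted p of 0.00012. Mmrn1 was at -2.33, Reln at -1.94, the lymphatic chemokine Ccl21 at -1.51 and Nrp2 at -0.65. Flt4, the receptor of lymphatic growth factors, had 32.9 and 33.1 CPM in neonates and 40.7 and 47.4 CPM in adults, with a log2 fold change of -0.17 and an adjusted p of 0.17 in edgeR's test, and Tbx1 was at -0.26 with an adjusted p of 0.46. Pdpn was higher in neonates, at 0.42, a call lost with library size alone, with no filter on low counts and without adult replicate 1, adult replicate 2 or neonate replicate 2. The summed level of the 8 genes was 349 and 418 CPM in neonates and 1073 and 1217 CPM in adults, and no marker was at 0. The median log2 fold change of the list was -1.08, with -0.64 for Lyve1 itself, and the part of lymphatic endothelium in the Lyve1 values was not tested. Genes of blood endothelium moved less, with 2 of 7 lower (Vwf at -0.94 and Tek), 2 higher (Esam and Emcn, neither with library size alone nor without adult replicate 1) and 3 not called.

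Other white blood cells did not move as one. Of 7 microglia genes tested, 2 were lower in neonates, P2ry12 (-0.68) among them, and 5 were not called, and 4 were lower with library size alone. Sall1, the factor of microglial identity, had at most 1.19 CPM and Siglech no counts. Of 7 monocyte genes, 4 were lower, Ace (-1.10), Nr4a1 (-0.69), Plac8 (-0.63) and Spn, and 2 were higher, Vcan (1.03) and Fn1, while without adult replicate 2 or neonate replicate 1 only 2 were lower. Of 4 dendritic cell genes, 3 were lower (Zbtb46, Clec9a and Xcr1), but 1 without adult replicate 1 and none without adult replicate 2. In contrast, 5 of 7 mast cell genes were higher in neonates, with Cma1, a chymase, at 2.37 and Cpa3, a carboxypeptidase, at 2.34, and so were the 3 neutrophil genes tested, with S100a8 at 2.73 and Lcn2 at 0.85, although leaving out either neonatal library left 1 of them called. Of 12 lymphocyte genes 2 were tested, and 1 was lower (Cd4) and 1 higher in neonates (Cd79a, a chain of the B cell receptor, at 1.28 with an edgeR adjusted p of 0.035). Cd79a had 1.11 and 1.04 CPM in neonates and 0.662 and 0.386 CPM in adults, and its call was lost by DESeq2, with library size alone and without adult replicate 2, while without either neonatal library it was under the limit for testing. The T cell genes Cd3e and Cd3d had at most 0.238 CPM. Cd4, which in rats is also a gene of macrophages, had 0.912 and 0.857 CPM in neonates and 7.57 and 7.69 CPM in adults, and the log2 fold change was -2.86 ± 0.28 (standard error) with an edgeR adjusted p of 4.1e-05. It was under the limit for testing when either adult library was left out.

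The tissue showed the genes of a CB at both ages. Th, the first enzyme of dopamine synthesis in glomus cells, had 917 and 781 CPM in neonates and 1517 and 1242 CPM in adults, and of 12 glomus cell genes 5 were lower and 4 higher in neonates. Of 6 genes of sustentacular and Schwann cells, 2 were lower and 2 higher. The 5 proliferation genes were all higher in neonates, with Mki67 at 2.35, and without single-cell data they cannot be assigned to macrophages. Pth, the parathyroid hormone of the neighbouring gland, was read at 1595 CPM in the first neonatal library and 194 CPM in the second, and had 0 counts in adults. Both neonatal libraries held it, so leaving out 1 of them does not remove it. The part of parathyroid tissue in the values of the macrophage genes was not tested. Without neonate replicate 1, 7 of the 10 macrophage genes were still lower in neonates and Aif1 was still higher, with Mrc1 as the gene lost.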

How the data were processed

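RNA-seq of pooled rat CBs was analysed in 4 libraries, 2 neonatal (day 5) and 2 adult (day 21), grouped by their titles. According to the paper, poly A+ RNA was sequenced paired-end, and the authors trimmed the reads, mapped them with STAR to Rnor_6.0.102 and quantified them with Salmon (version 1.5.2 in the submitters' processing notes). The authors deposited estimated counts per gene, neither normalized nor filtered, of which 5.02% to 6.19% per library are fractional. Totals ran from 36286191 to 39476110, at which 3 counts are 0.0760 to 0.0827 CPM. This value is given as a scale of counting error only and was not applied as a filter.

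Estimated counts were rounded. The 670 genes annotated as other than protein-coding by symbol or synonym in the RefSeq table of GRCr8 were removed, and a gene was tested if 2 or more libraries reached 1 CPM. The ages were compared by edgeR 4.0.16 (TMM, quasi-likelihood test, no covariates) in R 4.3.3, with limma 3.58.1 and DESeq2 1.42.0 as alternatives. Standard errors are the log2 fold change over the square root of F. Replicates differed by 29.0 (neonates) and 13.3 (adults) in chi-square per degree of freedom, well above sampling noise.

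The macrophage genes and 22 further lists (218 genes, 208 matched by symbol) were chosen with earlier results of these data known. All 10 macrophage genes are named, and the other genes named come from up to 4 called genes per list with the largest change and at least 5 CPM at one age, from all genes of the lymphatic, C1 complex and Csf1 lists, and from the first 2 genes of lists of other cells. Spi1, Runx1, Cebpa, Tyrobp, Trem2, Pf4, Vsig4, Cd209a, Axl, Cyba, Coro1a, Tyro3, Megf10, Hpx, Slc40a1, Sall1, Siglech, Spn, Fn1, Clec9a, Xcr1, Cd79a and Th are named outside this rule, after their values were seen. Some genes of these lists are not reported here. Hbb, Ftl1, Ccl21 and Lyz2 have close copies with which reads may be shared, so their values are uncertain. On simulated data for this comparison (13838 genes, 200 of them changed by 1.5 on the log2 scale), 200 were called with the right sign and 10 unchanged genes were called. The simulation gave all genes the same spread and changed far fewer genes than were called in the data. Its change was also larger than that of any of the 10 macrophage genes. It therefore does not show how well changes as small as theirs are found.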

Additional observations from a re-analysis of the deposited data

How the results depend on the processing

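Of 129 values of the 10 macrophage genes under the alternatives, 124 kept their direction and their side of the threshold, 5 lost the call (3 of Mrc1, 2 of Aif1) and none changed direction. The number of these genes lower in neonates was 8, and 7 to 8 with 1 library left out (7 by DESeq2), while 0 to 1 were higher. With library size alone none was higher, and the median log2 fold change was -1.09 in place of -0.84, with the median of all genes moved by as much (-0.25). With a fold of at least 2 required, 3 were lower, 0 were higher, and 2884 of all genes were called in place of 8622. The mean of at least 5 CPM removed Cd163. Of 1035 values of 81 other named genes, 1003 kept direction and side, 27 lost and 2 gained the call, and 3 changed direction, none of them called. These were Cdh5 (-0.063) and Kit (-0.13) with library size alone and Tbx1 without adult replicate 2 (-0.54 to 0.0079 with a library left out). Of 676 list counts, 620 stayed within 1.5 times. Replicate numbers are shared between ages, but replicates with the same number did not deviate together (Pearson r = -0.016 over 13838 genes), and the labels give no shared batch. With a replicate block, 8 macrophage genes were lower, 1 was higher and 9086 genes were called in all. The cause of the differences between settings was not tested.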
